A study of Mus musculus with 12 samples.

Results

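Oxidative phosphorylation genes encode the respiratory chain and ATP synthase of mitochondria. They were taken as every protein-coding gene whose symbol starts with Ndufa, Ndufb, Ndufc, Ndufs, Ndufv, Sdh, Uqcr, Cox4, Cox5, Cox6, Cox7, Cox8, Atp5, mt-Nd, mt-Co, mt-Atp or mt-Cytb, leaving out the Ndufaf assembly factors, pseudogenes and genes below 1 CPM (a gene's count divided by the library total, on the usual per-million scale) in all 12 libraries. Of 54446 rows in the count tables, 103 carried such a name and 98 were kept, 86 encoded in the nucleus and 12 on the mitochondrial chromosome. The 5 left out were mt-Atp8, Cox7b2, Cox8b, Cox8c and a second Atp5o entry. The nuclear genes comprise 36 of complex I, 4 of complex II, 8 of complex III, 14 of complex IV and 17 of complex V, with 4 complex II assembly factors that the Sdh prefix also takes in (Sdhaf1 to Sdhaf4), Ndufa4 and Ndufa4l2, and the supercomplex factor Cox7a2l.

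The libraries come from bulk hippocampus and bulk cerebellum of 3 Syt14-/- mice and 3 Syt14+/+ mice, and both tissues of an animal were sequenced. Syt14 encodes synaptotagmin 14, and the study asked about mood disorder and motor coordination. The mice are called knockout and wild type here, and the sources used here do not give their strain, age or sex, the part of Syt14 that was removed or any cell type restriction. Library totals ran from 24355572 to 34971359 counts, so that 1 count is a small part of a CPM and the number of animals (3 per group) limits the precision. Syt14 itself, the check of the labels, read 29.19, 28 and 30.6 scaled CPM in knockout hippocampus and 38.5, 38.9 and 38.1 in wild-type hippocampus. In the cerebellum it read 30.6, 30.7 and 30.3 in knockout and 33.8, 33.3 and 38.2 in wild type, so the genotypes did not overlap in either tissue although transcript remained. The tissue labels matched their markers: the summed level of 11 cerebellar granule cell markers was 6085 to 7132 CPM in cerebellum and 311 to 345 CPM in hippocampus, and that of 14 hippocampal neuron markers was 5398 to 5887 CPM in hippocampus and 602 to 666 CPM in cerebellum. In bulk tissue, fewer cells of a type and less RNA per cell cannot be told apart.

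Complexes I and II pass electrons from NADH and succinate to ubiquinone, complex III passes them on to cytochrome c, and complex IV passes them to oxygen. Complexes I, III and IV pump protons across the inner mitochondrial membrane, and complex V, the ATP synthase, uses the gradient to make ATP. Mitochondrial DNA supplies a small core of subunits to every complex except II, the nucleus supplies the rest, and the brain draws most of its ATP from this pathway. Some subunits of complex IV exist as a widely used isoform and a second isoform best known from muscle, lung or testis.

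Most of the counts of the pathway came from 7 of the 12 mitochondrially encoded genes, and the other 5 were almost empty. mt-Co1, the catalytic subunit of complex IV, read between 15910 and 20120 scaled CPM, that is CPM corrected for library composition. mt-Cytb, the complex III core subunit, read 4878 to 6092 scaled CPM. The complex I subunits mt-Nd5, mt-Nd1, mt-Nd2 and mt-Nd4 ranged from 2131 (mt-Nd4) to 5076 (mt-Nd5), and mt-Nd6, the subunit encoded on the other strand of the mitochondrial DNA, from 740.3 to 991.7. By contrast, mt-Co3 and mt-Co2, the other core subunits of complex IV, read 1.77 to 4.95 and 0.825 to 3.09 scaled CPM. The ATP synthase subunit mt-Atp6 read 0.722 to 3.24, mt-Nd4l 2.22 to 4.16 and mt-Nd3 16.59 to 24.01.

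These 5 genes are the ones with a near-complete copy in the nuclear genome. Against all annotated transcripts, at 98% identity or more over at least 100 bases, unprocessed pseudogenes on chromosome 1 (GRCm38) matched 99.6% of mt-Co2 (Gm28661), 99.9% of mt-Co3 (Gm28437), 99.6% of mt-Atp6 (Gm10925), 99.0% of mt-Nd4l (Gm10222) and 99.1% of mt-Nd3 (Gm28438). The match covered 63.6% of mt-Nd4 and 31.3% of mt-Co1. No match was found for mt-Nd1, mt-Nd2, mt-Nd5, mt-Nd6 or mt-Cytb. The 5 near-complete copies were not high either, from 0.0338 to 5.16 CPM over the 12 libraries. The sources used here do not say how reads that match both places were counted, and this was not tested. Values for these 5 genes are therefore uncertain as levels of the mitochondrial transcripts. The same holds for the matched parts of mt-Nd4 and mt-Co1.

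The closeness of a copy is shown by the 81 bases around the single difference between mt-Nd3 and Gm28438, on the mitochondrial genome (chrM:9459-9539, plus strand) and on chromosome 1 (chr1:24613039-24613119, minus strand), both GRCm38. The capital marks the 1 base that differs over 345 aligned bases.
mt-Nd3: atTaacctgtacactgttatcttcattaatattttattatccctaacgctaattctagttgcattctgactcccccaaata
Gm28438: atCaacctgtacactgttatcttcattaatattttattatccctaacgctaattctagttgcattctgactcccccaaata

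**Figure D1:**
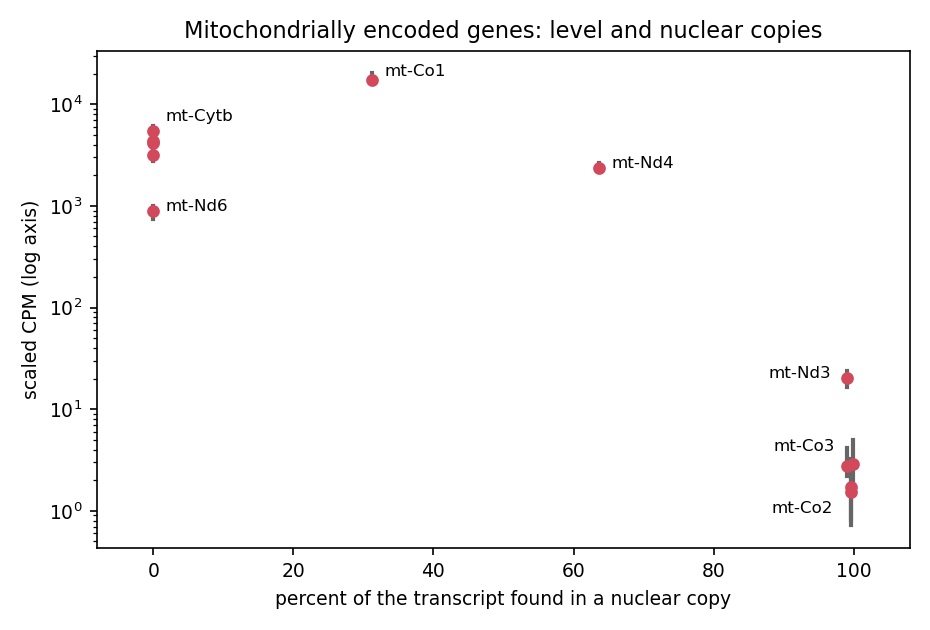
Level of each of the 12 mitochondrially encoded genes (vertical axis, scaled CPM, log axis; the point is the median and the bar the range over 12 libraries) against the percent of its transcript found in a nuclear copy (horizontal axis). The 5 genes at 99.0% or more lie at 24.01 scaled CPM or below, and the 7 others at 740.3 or above.

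All 12 genes together took 3.50% to 4.06% of the unscaled counts of a library, with group means of 3.79% ± 0.169 (SD, n = 3) in knockout and 3.80% ± 0.223 in wild-type hippocampus, 3.79% ± 0.253 in knockout and 3.78% ± 0.148 in wild-type cerebellum. On scaled CPM their sum was 37600 to 43070 in hippocampus and 33600 to 37290 in cerebellum, without overlap. The uncertainty about reads that also match a nuclear copy carries over to this share and this sum. The 86 nuclear genes took 0.684% to 0.726% of the unscaled counts in hippocampus and 0.794% to 0.863% in cerebellum, without overlap. On scaled CPM their sum was 7155 to 7708 in hippocampus and 7670 to 8103 in cerebellum, and these ranges overlapped, so which of the gene sets separates the tissues depends on the scaling.

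Among nuclear subunits, levels per kilobase of exon differed far more between genes than between libraries. The length used is that of all annotated exons of a gene, merged. It can far exceed the principal transcript, as for Atp5l (6443 against 544 bases) and Atp5b (4237 against 1916). Which gene is highest or lowest in a complex can depend on this choice, and no order on transcript length was computed. In wild-type hippocampus the highest of complexes II to V were Sdha of complex II (102 ± 3.31 scaled CPM per kb), Uqcrfs1, the Rieske iron-sulphur protein of complex III (76.4 ± 1.89), Cox8a of complex IV (327 ± 14.1) and Atp5a1, the alpha subunit of the ATP synthase (251 ± 4.76, each SD, n = 3). By the same length the lowest of complexes I to V were Ndufb2 at 3.09 ± 0.213, Sdhc at 17.8 ± 0.983, Uqcrq at 20.9 ± 0.291, Cox6b2 at 0.863 ± 0.215 and Atp5l at 5.65 ± 0.0705 scaled CPM per kb. Ndufc2 of complex I read 70.1 ± 1.70 in wild-type hippocampus and 86.7 ± 6.84 in wild-type cerebellum. In wild-type cerebellum Cox6a2 (1.29 ± 0.199) and Atp5s (6.21 ± 0.485) became the lowest of complexes IV and V. The nuclear genes are short, with a median of 1631 exonic bases (419 to 8086) against 4525 for 14527 protein-coding genes at 1 CPM or more. The 98 genes lie on 20 chromosomes, the mitochondrial one included.

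In the hippocampus, none of the 98 genes was called between knockout and wild type at an adjusted p under 0.05 (edgeR's quasi-likelihood test, Benjamini-Hochberg over 17693 genes). The share of all genes called was 0%. DESeq2 called 0 of the 98 as well (0.0226% of all genes), and 1 gene, Ndufb3, was under an unadjusted p of 0.05, against 4.34% of all genes. Small shifts below 0 were the more frequent ones: 63 of 86 nuclear genes lay below 0 in knockout relative to wild type, against 49.2% of all genes, with a median log2 fold change of -0.03 (all genes 0.00). The 7 abundant mitochondrially encoded genes had a median of 0.00.

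Ndufb3, a membrane-arm subunit of complex I, read 29.4, 29.8 and 28.8 scaled CPM in knockout and 34.5, 32.3 and 31.5 in wild-type hippocampus. The knockout libraries all lay lower, with a log2 fold change of -0.16 ± 0.06 (SE; edgeR adjusted p = 0.995). Ndufb4, of the same arm, read 11.7, 12.6 and 11.3 against 12.7, 13.9 and 13.7. Uqcr10, a small subunit of complex III, read 31.0, 28.8 and 30.8 against 31.7, 33.0 and 33.3. Both also lay lower in every knockout library, at -0.18 ± 0.10 and -0.11 ± 0.06 on the log2 scale. In all, 5 of the 98 genes had every knockout library below every wild-type library and 0 the reverse, against 4.54% and 5.21% of all genes. Uqcr11, another small subunit of complex III, read 19.96, 20.65 and 19.14 against 24.5, 19.9 and 23.8, and here the second wild-type library fell among the knockouts. The next smallest p-values belonged to Ndufa2 (-0.16 ± 0.09), Sdhaf2 (0.10 ± 0.06), Atp5g3 (-0.07 ± 0.05) and Sdha (-0.06 ± 0.04), whose groups overlapped.

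In the cerebellum, again 0 of 98 genes were called by edgeR's quasi-likelihood test (0.0113% of 17733 genes) and 0 by DESeq2 (0.209%). The small shifts were mostly above 0, in 56 of 86 nuclear genes against 51% of all genes, with a median of 0.03 (all genes 0.00). At an unadjusted p under 0.05 stood 3 of 98 genes, against 6.77% of all genes. With the scaling of the 6 cerebellar libraries alone, every knockout library lay above every wild-type library in 4 genes and below in 1, against 6.37% and 5.55% of all genes. On the scaled CPM printed here, which uses factors over 12 libraries, the counts were 5 and 2, since narrow margins such as that of mt-Nd3 (18.12 against 18.03) turn on the scaling.

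Uqcr10 had the smallest p of the 98 in the cerebellum. It read 33.9, 33.8 and 33.3 scaled CPM in knockout and 29.1, 31.1 and 28.1 in wild type. The groups did not overlap, and the log2 fold change was 0.19 ± 0.06 (edgeR adjusted p = 0.644). Cox6b2, the testis isoform of a complex IV subunit, was low: 2.32, 3.07 and 2.52 scaled CPM in knockout and 3.88, 3.79 and 3.10 in wild type. The knockout libraries lay lower by a narrow margin, at -0.44 ± 0.17 (edgeR adjusted p = 0.701). Ndufab1, the mitochondrial acyl carrier protein that is also a complex I subunit, read 65.1, 70.0 and 63.2 against 57.1, 62.0 and 60.5, at 0.14 ± 0.06 (edgeR adjusted p = 0.714). Ndufb6 (0.14 ± 0.07) also kept its groups apart, while Ndufs5 (0.13 ± 0.06), Atp5j2 (0.15 ± 0.07) and Cox7c (0.17 ± 0.08) did not. mt-Nd3 stood at 0.17 ± 0.08.

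**Figure D2:**
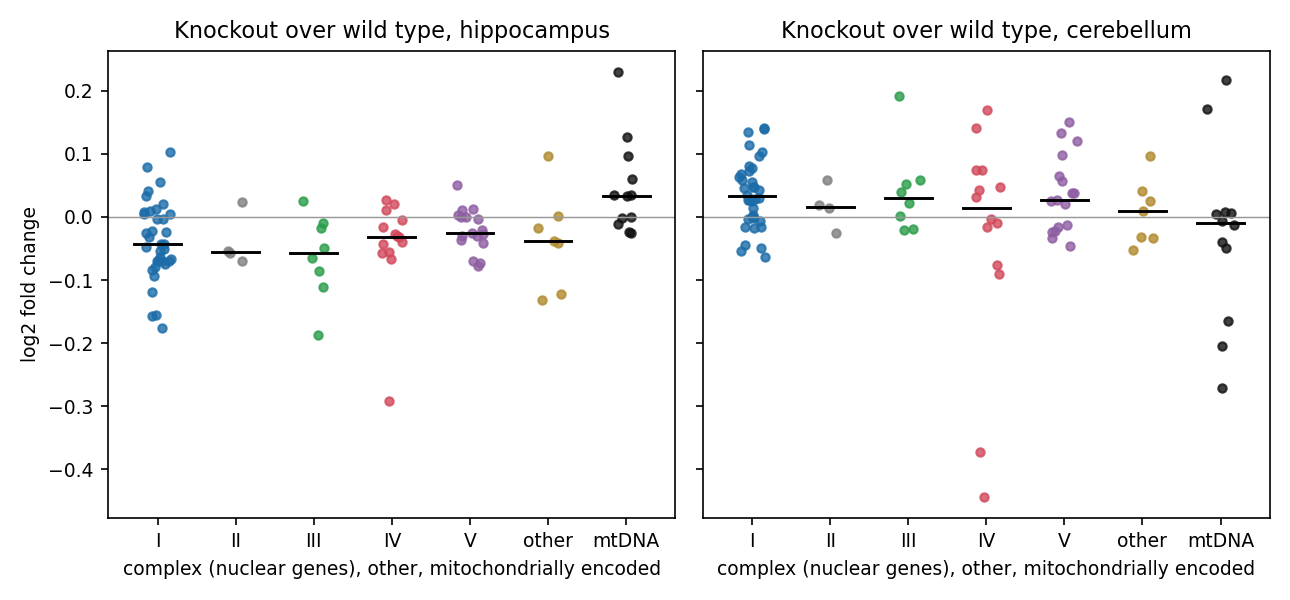
Log2 fold change, knockout over wild type, of each of the 98 genes in hippocampus (left) and cerebellum (right), grouped by complex; points are genes and lines are group medians, other marks the assembly and accessory genes and mtDNA the mitochondrially encoded genes. Complexes I to V have medians just below 0 in hippocampus (-0.06 to -0.03) and just above 0 in cerebellum (0.01 to 0.03), and none of the 98 genes was called.

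No difference in genotype effect between the tissues was called for any of the 98 genes at an adjusted p under 0.05 (edgeR's quasi-likelihood test of the interaction over 12 libraries, 0 of 98, against 0.0105% of 19027 genes; DESeq2 0 of 98, against 0.0526%). At an unadjusted p under 0.05 were 3 genes, against 5.34% of all genes. They were Uqcr10 (cerebellar minus hippocampal effect 0.31 ± 0.08 on the log2 scale, edgeR adjusted p = 0.78), Atp5j2, a membrane subunit of the ATP synthase (0.23 ± 0.10, adjusted p = 0.918), and Ndufa2 (0.27 ± 0.12, adjusted p = 0.919). Next came Atp5e (0.20 ± 0.10), Cox7c (0.22 ± 0.11) and Ndufb4 (0.25 ± 0.12). The median difference over the 98 genes was 0.05, against 0.00 over all genes.

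The median shift of the nuclear genes varied by library, and the knockout cerebella did not all share its direction. Relative to the wild-type mean, the median nuclear gene stood at -0.06, -0.03 and -0.01 (log2) in the 3 knockout hippocampi and at 0.00, -0.03 and 0.04 in the wild-type ones. In the cerebellum it stood at 0.05, 0.05 and -0.02 in knockout and at 0.01, 0.05 and -0.04 in wild type, so the genotypes overlapped in both tissues. The cytosolic ribosomal protein genes, which are short as well, stood at -0.06, -0.08 and 0.01 in knockout hippocampus and at 0.08, 0.07 and -0.03 in knockout cerebellum. Nuclear genes with at most 1000 exonic bases had a median genotype effect of -0.06 in hippocampus and 0.03 in cerebellum, against 0.01 and 0.02 for all genes of that length. Markers of neighbouring tissue and other cell types also moved by library. The summed level of 14 brainstem markers was 81.8, 113 and 60.8 CPM in the knockout cerebella and 69.4, 73.5 and 64.5 in wild type. In the second wild-type hippocampus 15 meningeal markers summed to 197 CPM, against 93.5 to 110 CPM in the other 5. In the third knockout cerebellum 11 choroid plexus markers summed to 29.8 CPM against 1057 to 2942 in the other cerebella. Sums of 19 endothelial and pericyte markers kept the genotypes apart in both tissues, at 534 to 589 CPM in knockout against 606 to 661 in wild-type hippocampus and 775 to 808 against 710 to 764 in cerebellum. Sums of 11 microglial markers did so in the cerebellum, at 160 to 176 against 140 to 147 CPM. The part of these marker sums in the small shifts was not tested, apart from fits with the mean log2 CPM of a marker list as a covariate. With the brainstem markers as covariate the median of the 98 genes in the cerebellum was -0.02 in place of 0.02. With the meningeal markers as covariate in the hippocampus no member was called. No member was called without that covariate either, so this count could not fall and does not bear on these markers.

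**Figure D3:**
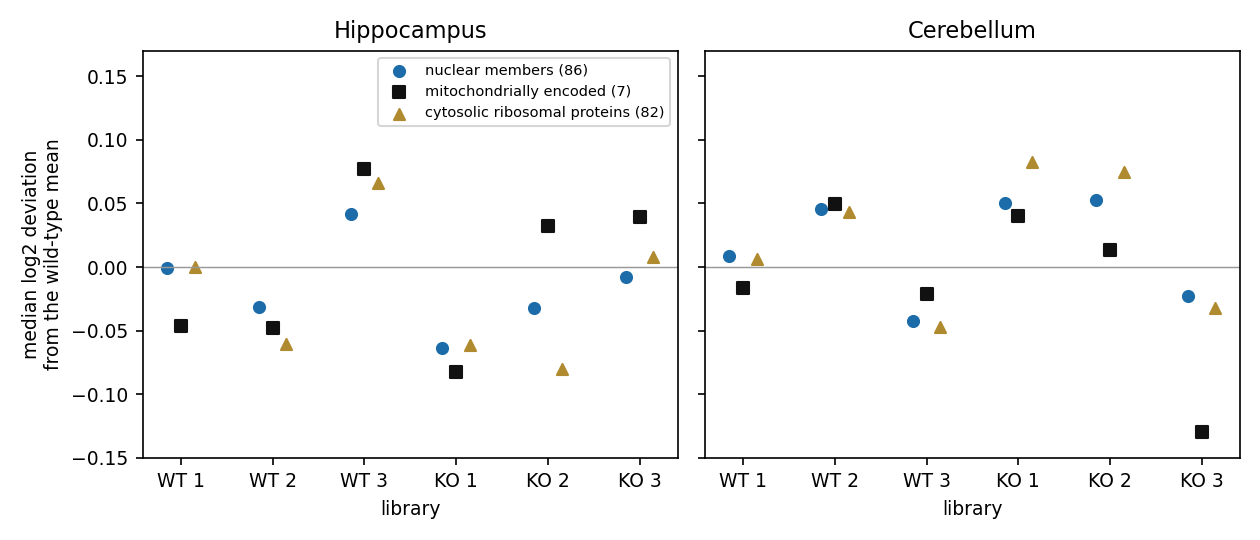
Median log2 deviation from the wild-type mean of the same tissue (vertical axis) in each library (horizontal axis), for the nuclear genes, the 7 abundant mitochondrially encoded genes and the cytosolic ribosomal protein genes. Knockout and wild-type libraries overlap in each panel for the nuclear genes.

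Between hippocampus and cerebellum more than 50 of the 98 genes differed in each genotype, a smaller share than among all genes. In wild type 53 of 98 genes were called (edgeR's quasi-likelihood test), 30 higher and 23 lower in cerebellum, against 66.1% of 18128 genes called, 33% higher and 33.1% lower. In knockout, with no library shared with the first comparison, 55 were called, 40 higher and 15 lower, against 64.1% of 18200 genes, 32.5% higher and 31.6% lower. With the animal as a block the calls were 28 higher and 22 lower in wild type and 33 and 11 in knockout (65.9% and 61.8% of all genes called). In both genotypes 26 were higher and 15 lower, none was called in opposite directions, and 85 of 98 had the same sign, against 29%, 29.3%, 0.0113% and 90.9% of 17774 genes. The tissues also differ in a tag of the deposited column headers, so tissue and that tag cannot be told apart.

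The split between higher and lower depends on how library composition is scaled. Without composition scaling the median gene of the genome moved up by 0.14 on the log2 scale in either genotype, and the split became 53 higher and 8 lower in wild type and 55 and 4 in knockout (68.7% and 67.2% of all genes called). With upper-quartile factors it was 37 and 17, and 45 and 11 (66.6% and 64.5%). Directions below are relative to the median gene. Without composition scaling, 8 of the 23 members called lower in wild type and 4 of the 15 in knockout stayed called. Ndufa8 and Ndufb6 stayed called lower in wild type only, and Atp5s and Cox7a2l in neither genotype. Under no scaling, upper-quartile, RLE, DESeq2 and the block, every member called higher stayed above 0, and of those called lower only Sdhb in wild type turned, from -0.14 to 0.00 without scaling.

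The 3 members with the widest tissue difference in both genotypes were second isoforms of complex IV subunits. Cox6b2 read 0.747, 1.22 and 0.905 scaled CPM in wild-type hippocampus and 3.88, 3.79 and 3.10 in wild-type cerebellum, a rise of 1.90 ± 0.23 on the log2 scale (adjusted p = 9.3e-06), and rose by 1.46 ± 0.27 in knockout (adjusted p = 0.000995). Cox7a1, the heart and skeletal muscle isoform, read 0.314, 0.494 and 0.590 in wild-type hippocampus and 1.029, 1.426 and 1.397 in cerebellum, and rose by 1.46 ± 0.33 (adjusted p = 0.00189). Cox6a2, also a heart and skeletal muscle isoform, went the other way: it read 2.59, 1.75 and 1.69 in wild-type hippocampus and 0.990, 0.727 and 0.911 in cerebellum, at -1.21 ± 0.27 (adjusted p = 0.00166). In knockout it was at -1.31 ± 0.39 (adjusted p = 0.0139), which fell short of the threshold without the third knockout hippocampus, where it read 3.27 against 1.22 and 1.59 (-0.79). Cox4i2, the isoform best known from lung and low oxygen, read 1.02, 0.874 and 0.944 in wild-type hippocampus and 1.43, 1.72 and 1.85 in cerebellum, a rise of 0.82 ± 0.25 (adjusted p = 0.0113). In knockout, where its groups overlapped, it stood at 0.75 ± 0.33 (adjusted p = 0.075), and passed the threshold without the third knockout cerebellum (0.92) or the third knockout hippocampus (1.01). Beside it, 19 endothelial and pericyte markers summed to 606 to 661 CPM in wild-type hippocampus and 710 to 764 CPM in wild-type cerebellum, and their part in the Cox4i2 value was not tested. None of these isoforms came near its common partner per kilobase of merged exons. Cox4i2 made 0.67% of Cox4 and Cox6a2 1.15% of Cox6a in wild-type hippocampus. Cox6b2 rose from 1.16% of Cox6b there to 4.48% in wild-type cerebellum. These shares depend on the length used: Cox6b2 has 1108 merged exonic bases and a principal transcript of 585.

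**Figure D4:**
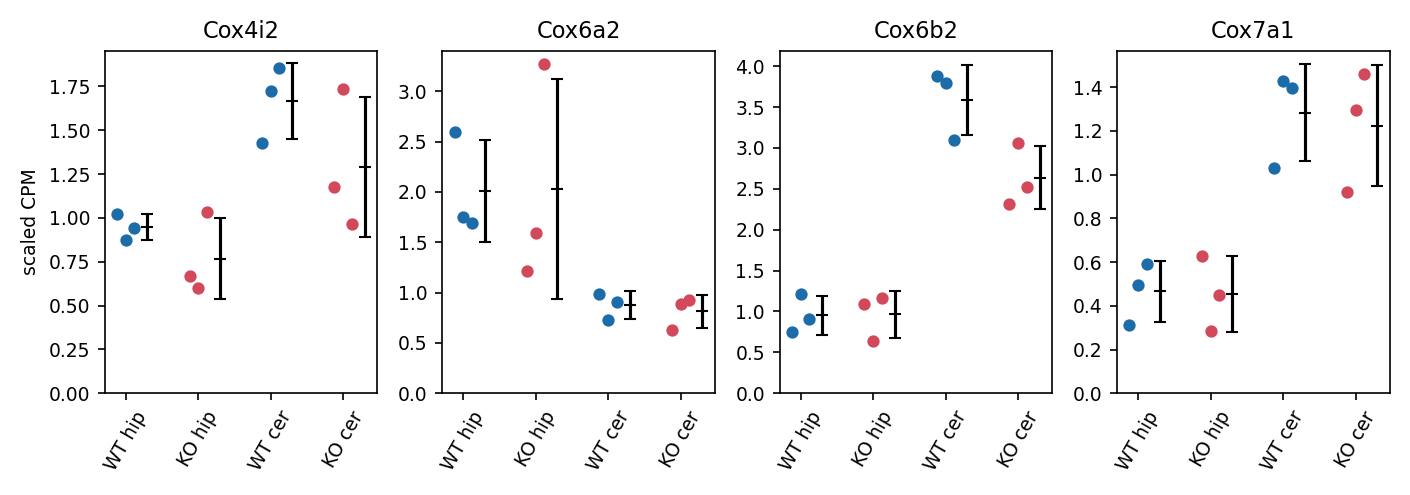
Scaled CPM (vertical axes, starting at 0) of 4 second isoforms of complex IV subunits in each library of wild type (WT, blue) and knockout (KO, red) hippocampus (hip) and cerebellum (cer); bars are mean ± SD of 3 libraries. Cox6b2 and Cox7a1 are higher in all 6 cerebellar libraries than in any hippocampal one, and Cox6a2 is lower.

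Among the widely used complex IV subunits some were lower in cerebellum in both genotypes and others higher in knockout. Cox8a was the highest nuclear-encoded one per kilobase of merged exons. It read 201.6, 194.3 and 211.7 scaled CPM in wild-type hippocampus and 164, 167 and 157 in cerebellum. The fall was 0.32 ± 0.05 on the log2 scale (edgeR adjusted p = 6.7e-05). Cox6a1 read 174.7, 168.4 and 193.5 against 148, 152 and 137 and was at -0.30 ± 0.06 (adjusted p = 0.00064). Cox5b and Cox6c were also called lower in wild type, and Cox6a1, Cox6c and Cox8a again in knockout. In knockout Cox5a (0.25 ± 0.05), Cox7a2 (0.21 ± 0.07) and Cox7b (0.19 ± 0.07) were called higher. Cox4i1 did not pass the test in wild type, at 0.00 ± 0.06. In wild type complex IV counted 3 higher, all of them the second isoforms named above, and 5 lower of 14, and in knockout 5 and 4. Of all genes 33% were called higher and 33.1% lower in wild type, and 32.5% and 31.6% in knockout. The lower counts of complex IV lay near these shares. The supercomplex factor Cox7a2l was lower in both genotypes (-0.26 ± 0.06 and -0.24 ± 0.05), and Ndufa4, a small protein of complex IV once assigned to complex I, was higher (0.24 ± 0.05 and 0.27 ± 0.07).

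Of 36 nuclear complex I subunits 12 were called higher and 5 lower in wild type, where 33% of all genes were called higher and 33.1% lower, so the higher count lay near the background. In knockout 16 were higher and 3 lower, against 32.5% and 31.6% of all genes. Ndufb2, of the membrane arm, was by far the widest: 18.2, 17.97 and 16.01 scaled CPM in wild-type hippocampus and 30.9, 36.0 and 34.4 in cerebellum. It rose by 0.96 ± 0.08 in wild type (adjusted p = 3.1e-07) and by 0.86 ± 0.06 in knockout (adjusted p = 2.2e-06), and no hippocampal library reached a cerebellar one. Ndufv3 of the NADH-binding module (0.40 ± 0.06) and Ndufc2 (0.30 ± 0.06) were also higher. Ndufa8 (-0.39 ± 0.06) and Ndufb6 (-0.35 ± 0.08) were lower, and were called lower in knockout too (-0.22 ± 0.07 and -0.18 ± 0.06).

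In complex II the membrane anchors rose and the iron-sulphur subunit did not. Sdhc read 56.8, 55.2 and 61.3 scaled CPM in wild-type hippocampus and 80.2, 82.3 and 76.0 in cerebellum, a rise of 0.46 ± 0.06 (adjusted p = 9.8e-06), and Sdhd rose by 0.27 ± 0.06 (adjusted p = 0.000725). The catalytic subunit Sdha stood at 0.06 ± 0.04 in wild type (adjusted p = 0.225) and rose by 0.14 ± 0.04 in knockout (adjusted p = 0.0167). Sdhb stood at -0.14 ± 0.05 in wild type (adjusted p = 0.0365) and 0.00 ± 0.07 in knockout. Of the assembly factors Sdhaf4 was at -0.27 ± 0.11 in wild type (adjusted p = 0.045), a call lost in 5 of the 6 fits that leave out 1 library (-0.30 to -0.22). In complex III 3 of 8 were higher and 1 lower in wild type, and 5 and 0 in knockout, with Uqcrfs1 higher in both (0.17 ± 0.04 and 0.21 ± 0.05). Uqcr10 stood at -0.15 ± 0.06 in wild type (adjusted p = 0.0501) and rose by 0.16 ± 0.06 in knockout (adjusted p = 0.0374), which is the same contrast as its interaction above. In complex V 6 of 17 were higher and 2 lower in wild type, 9 and 1 in knockout. The higher counts of complexes III and V in wild type stand beside 33% of all genes called higher, and those in knockout beside 32.5%. Atp5a1 and Atp5h, of the catalytic head and the peripheral stalk, were higher in both (0.13 ± 0.04 and 0.29 ± 0.05 in wild type), and Atp5s, a coupling factor B-like protein, lower (-0.35 ± 0.09 and -0.21 ± 0.08).

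Of the 7 abundant genes 5 were called lower in cerebellum in wild type and the same 5 in knockout, and 0 higher, with medians of -0.17 and -0.18. Of all genes 33.1% were called lower in wild type, 31.6% in knockout and 29.3% in both. The nuclear genes had medians of 0.02 and 0.14, and all genes 0.02 and 0.03. mt-Nd5 read 4632, 4740 and 5076 scaled CPM in wild-type hippocampus and 3866, 4132 and 3967 in cerebellum, at -0.28 ± 0.05 (adjusted p = 0.000516). mt-Nd6 was at -0.25 ± 0.05, mt-Nd4 at -0.20 ± 0.05, mt-Cytb at -0.17 ± 0.05 and mt-Nd1 at -0.16 ± 0.06 in wild type. mt-Co1 (-0.11 ± 0.06) and mt-Nd2 (-0.10 ± 0.05) did not pass. Without composition scaling, where the median gene stood at 0.16, the medians of the 7 were -0.03 and -0.04, mt-Nd5 and mt-Nd6 remained called in wild type and mt-Nd5 in knockout, and mt-Co1 and mt-Nd2 turned above 0 in wild type. Among the 5 genes with nuclear copies, mt-Atp6 read 1.02, 0.722 and 1.85 scaled CPM in wild-type hippocampus and 2.53, 2.05 and 2.80 in cerebellum (1.03 ± 0.30, adjusted p = 0.00935). mt-Co3 (0.88 ± 0.22) and mt-Nd4l (0.49 ± 0.17) were called higher as well, and mt-Nd3 lower (-0.31 ± 0.08). In knockout only mt-Co3 of the 5 was called (0.59 ± 0.23, adjusted p = 0.0495), a call lost in 4 of the 6 fits that leave out 1 library (0.39 to 0.64), and the uncertainty about their source applies to all of these values.

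**Figure D5:**
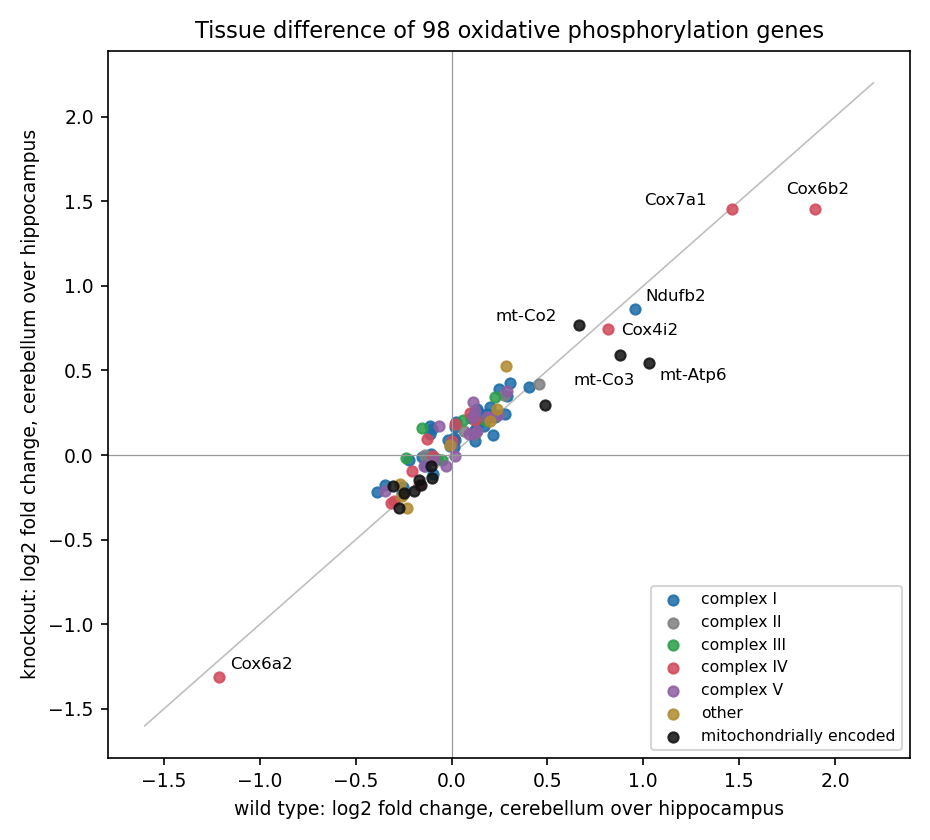
Log2 fold change, cerebellum over hippocampus, of the 98 genes in wild type (horizontal axis) and knockout (vertical axis), coloured by complex; each point is a gene and the line marks equal values. Cox6b2 and Cox7a1 lie highest and Cox6a2 lowest in both, and most other genes lie within 0.5 of 0.

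Short motifs of factors known to act on respiratory genes stood in a larger share of these genes' promoters than of all promoters, given here as a description with no test. RefSeq windows of 300 bases (250 before and 50 after the start, GRCm38.p6) were at hand for 71 of the 86 nuclear genes, 76 windows in all. The NRF1 motif, GCGCA followed directly by TGCGC and its own reverse complement, stood in 6.58% of these windows and in 0.966% of all 32817. On either strand, the YY1 motif AAGATGGCG stood in 9.21% against 1.4%, the ERR motif TCAAGGTCA in 2.63% against 0.424% and the ETS motif CCGGAAGT in 6.58% against 3.89%. None of the 76 windows held more than 1 of the 4 motifs (0 windows). Holders of a motif did not share a tissue direction in every case: of the 5 genes with the NRF1 motif Cox6a1 was lower and Uqcrc1 higher (0.12 ± 0.04) in both genotypes, and Atp5g2 (0.02 ± 0.07), Ndufa11 (-0.11 ± 0.06) and Atp5k (-0.09 ± 0.14) did not pass in wild type. Both genes with the ERR motif, Atp5g3 (0.12 ± 0.05) and Sdhd, were called higher in both genotypes, as were 29% of all genes. Of the ETS holders Cox8a was lower and Atp5h and Uqcrh higher in both genotypes. Uqcr11 was lower in wild type only, and Ndufs3 did not pass. Of the YY1 holders Ndufs4, Ndufs7 and Atp5j were higher in both genotypes, and Ndufa9, Ndufc1, Ndufs6 and Atp5j2 did not pass in either. The windows of all promoters were not chosen by expression or GC content, whereas members were kept only at 1 CPM or more. No share in a matched set was computed. A match is a description of the letters, and no binding was measured.

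The stretches around 3 of these motifs, all on the minus strand, are given to show members that fell (Cox6a1), did not pass (Atp5g2) and rose (Atp5g3) in cerebellum. Capitals mark the motif, which begins 162, 42 and 52 bases before the start. They lie at chr5:115349066-115349165, chr15:102671048-102671134 and chr2:73911327-73911423, and Atp5g3 holds the reverse complement.
Cox6a1: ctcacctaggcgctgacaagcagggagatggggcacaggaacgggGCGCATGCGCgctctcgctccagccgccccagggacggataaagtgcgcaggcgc
Atp5g2: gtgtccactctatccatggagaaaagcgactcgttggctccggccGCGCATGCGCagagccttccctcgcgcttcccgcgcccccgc
Atp5g3: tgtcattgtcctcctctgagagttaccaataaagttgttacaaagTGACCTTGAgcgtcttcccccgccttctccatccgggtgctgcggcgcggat

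The counts of other genes of energy metabolism between tissues stand beside 33% of all genes called higher and 33.1% lower in wild type, and several lists lay near these shares. In these lists 0 genes were called by genotype in either tissue (edgeR; DESeq2 also 0). Of 12 regulators of respiratory genes 8 were higher and 1 lower in wild-type cerebellum, among them the oestrogen-related receptors Esrrg (2.14 ± 0.06) and Esrrb (2.84 ± 0.14) and Hif1a (1.11 ± 0.05), the oxygen-responsive factor. Of 18 genes of mitochondrial DNA expression 6 were higher and 1 lower, including the mitochondrial RNA polymerase Polrmt (0.72 ± 0.06) and the polymerase subunit Polg2 (1.402 ± 0.168). In glycolysis 14 of 18 genes were lower and 4 higher in wild type, and 12 and 4 in knockout. Pfkl, a phosphofructokinase, was at -1.55 ± 0.05 and Ldha, a lactate dehydrogenase subunit, at -0.89 ± 0.06, while Aldoc, an aldolase typical of brain, rose by 1.34 ± 0.05. Citric acid cycle genes were mixed (7 higher and 4 lower of 18), with Pdha1 of pyruvate dehydrogenase at -0.48 ± 0.04 and Idh3g, an isocitrate dehydrogenase subunit, higher by 0.44 ± 0.04. Assembly factors were also mixed, 2 higher and 4 lower of 15 for complex I, 1 and 4 of 6 for complex III, where Ttc19 was at -1.06 ± 0.05, and 6 and 5 of 21 for complex IV. Mitochondrial ribosomal proteins counted 19 higher and 15 lower of 77, and cytosolic ones 2 higher and 59 lower of 79. Without composition scaling glycolysis still counted 11 lower and 4 higher in wild type, and cytosolic ribosomal proteins 37 and 7.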

How the data were processed

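Per the labels' protocols, poly(A) RNA was made into strand-marked libraries. Per the submitters' processing notes, reads were trimmed with Trimmomatic 0.39, aligned with STAR 2.7.10 and counted with featureCounts 2.0.3 on GRCm38; the sources used here do not say whether strand was used or how multiply aligned reads were treated. The authors deposited raw counts per gene, 54446 rows, of which 54409 matched GENCODE M21. Genes were filtered with filterByExpr (minimum count 10, minimum total 15), scaled by TMM and tested with edgeR 4.0.16 (quasi-likelihood, two-sided, R 4.3.3), with Benjamini-Hochberg adjustment over all genes and calls at an adjusted p under 0.05. Scaled CPM uses the TMM factors over 12 libraries. DESeq2 1.42.0, other scalings, no filter, removal of a length trend, a replicate block, a single fit, marker covariates, leaving out the mitochondrial genes and leaving out each library were alternatives. The tests were tried on simulated counts with the same replicate noise for every gene. Each run held 50 changed genes at each of 1.25-, 1.5-, 2- and 4-fold. The adjustment is more lenient where many genes change. The real genotype comparisons called 0 genes in hippocampus and 2 in cerebellum, so the recovery given here may be too high for them. At a 1.25-fold change 14 of 50 changed genes were recovered by genotype in either tissue and 2 of 50 for the interaction. At 2-fold the counts were 43 in hippocampus, 46 in cerebellum and 40 for the interaction. Exons of 11 members overlapped a gene on the same strand and those of 33 a gene on the other strand, and 15 nuclear members had a copy elsewhere at 98% identity or more (1, Atp5g2, over 80% of its transcript), so reads of these may be shared. Tissue pairs come from the same animal: same-numbered libraries correlated at 0.0619, 0.0674 and 0.0814 in wild type and 0.00707, 0.0363 and 0.0483 in knockout. Named genes are the mitochondrial genes, complex IV isoforms, extremes of level, the smallest p by genotype (8 per tissue, 6 for the interaction), the 10 widest calls in each direction between tissues in wild type, and 3 per pathway list by p; other genes were named after their values were seen, and a gene that the rule on levels takes in is not reported here. Members and lists were chosen with earlier results of these data known.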

Additional observations from a re-analysis of the deposited data

How the results depend on the processing

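By genotype, and for its difference between tissues, 0 members were called under each alternative run, each single library left out included. Over the fits that leave out 1 library the medians were -0.05 to 0.00 in hippocampus, 0.00 to 0.05 in cerebellum and 0.03 to 0.08 for the difference, and with the brainstem covariate the cerebellar median was -0.02. Between tissues, leaving out 1 library gave 44 to 50 members called in wild type and 40 to 52 in knockout, with medians of -0.01 to 0.05 and 0.10 to 0.14. Without scaling factors, an alternative chosen after seeing the data, the medians were 0.16 in wild type and 0.26 in knockout, following the shift of the median gene. With the animal as a replicate block, 50 members were called in wild type (28 higher, 22 lower) and 44 in knockout (33 and 11). With a replicate block by number in the genotype comparisons 0 were called; the numbers do not pair animals there (r -0.00803, -0.00654 and 0.0443 in hippocampus, 0.0852, 0.142 and 0.251 in cerebellum, where each sample correlated best with its own number). The next counts cover only the genes named by smallest p and, in both genotypes, by the widest calls between tissues. Of their alternative values 910 kept their side of the threshold, 48 fell short of it, 7 passed it newly and none reversed. Those 48 and 7 were all between tissues. Outside that set some named genes changed sign, such as mt-Co1, mt-Nd2 and Sdhb without scaling in wild type.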
